A study of Mus musculus with 32 samples.

Results

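The genes described here make, store, take up and break down the monoamines and histamine in the mouse median eminence (ME). They are 8 of the 27998 genes of a single-cell count matrix and were taken by symbol: Hdc, Th, Ddc, Slc18a2, Slc6a3, Maoa, Maob and Hnmt. They were selected on their measured levels and shares of positive cells over cell types, Hdc in ependymocytes and Th in neurons above all, so these levels are described and not tested. The study compared C57B/L6 mice fasted overnight for 16 h with mice refed normal chow for 1 h after such a fast, all aged 40 to 47 days. The ME of 5 mice was pooled per condition, and the dissociated cells of each pool were divided over 2 droplet libraries. All libraries stand in 1 matrix of 5982 cells. Each barcode carries a final number, 1 to 4, and no label says which library or condition it came from. Fasted and refed cells were therefore not compared. The 4 numbers were taken to stand for the 4 libraries, which no label states. Read so, their values show a spread between libraries and not between mice.

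Dopamine is made in neurons in a pair of steps. Tyrosine hydroxylase (Th) forms L-DOPA, the rate-limiting step, and aromatic amino acid decarboxylase (Ddc) turns it into dopamine. The vesicular transporter VMAT2 (Slc18a2) loads dopamine into vesicles, and the dopamine transporter (Slc6a3) takes it back up. Histamine is made in a single step by histidine decarboxylase (Hdc), and VMAT2 loads it as well. The monoamine oxidases (Maoa and Maob) break down monoamines, and histamine N-methyltransferase (Hnmt) inactivates histamine inside cells. In the arcuate nucleus and ME, dopamine neurons are best known for holding back prolactin release from the pituitary, whereas histamine neurons of the hypothalamus are known from the tuberomammillary nucleus.

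The cells held 29288898 unique molecular identifiers (UMIs), each standing for 1 captured transcript, at 1533 to 25054 UMIs a cell and a median of 3837. Of 25 clusters, 21 were named by marker genes and gave 13 cell types of 75 to 1419 cells, and 601 cells stayed in 4 unnamed clusters. In the clusters so named, all 8 ependymocyte markers and 7 or 8 of the 8 neuron markers exceeded the median cluster by 4 times or more. Depth differed between types, with a median of 13412 UMIs in neuron-like and 2245.5 in endothelial-like cells. Of all cells, 42 shared a barcode sequence with a cell of another number. Levels are given as UMIs of a gene per 1e+06 UMIs of a group of cells (CPM), with exact Poisson 95% intervals, and shares of cells with at least 1 UMI have exact Clopper-Pearson 95% intervals. Both cover counting error only, and where no UMI was found the limit given is that of 3 UMIs.

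The upstream sequences of the genes on which the results turn are shown to place them in the genome, and the UMIs, which come from 3' ends, do not measure these windows. Of the 8 genes, 7 had a promoter entry in RefSeq (GRCm38.p6), and Ddc had 2 start sites. Each window runs 5' to 3' over the 250 bases before the RefSeq start, less bases that GENCODE counts as exon, which left 231 bases for Th. In capitals are matches, on either strand, to TATAAA, TGACGTCA or GGGCGG (the TATA box, the cyclic AMP response element and the GC box). Of 32851 promoter windows of this length, 12.4% held TATAAA, 1.55% held TGACGTCA and 32.7% held GGGCGG. The windows lie on the minus strand at chr2:126618679-126618928 (Hdc), chr7:142900015-142900245 (Th), and chr11:11898145-11898394 and chr11:11890409-11890658 (Ddc start sites 1 and 2). The Hdc, Th and second Ddc windows lie in introns of longer GENCODE transcripts of the same gene.
Hdc: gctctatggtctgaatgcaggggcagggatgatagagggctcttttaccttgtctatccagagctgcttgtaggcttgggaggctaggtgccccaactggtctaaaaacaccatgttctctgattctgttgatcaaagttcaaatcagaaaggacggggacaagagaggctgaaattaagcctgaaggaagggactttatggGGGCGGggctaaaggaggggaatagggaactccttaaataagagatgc
Th: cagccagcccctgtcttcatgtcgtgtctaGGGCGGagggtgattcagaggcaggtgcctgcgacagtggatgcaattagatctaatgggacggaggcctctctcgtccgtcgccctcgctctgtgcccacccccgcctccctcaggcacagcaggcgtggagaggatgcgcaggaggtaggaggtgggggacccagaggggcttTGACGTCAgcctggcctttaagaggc
Ddc start site 1: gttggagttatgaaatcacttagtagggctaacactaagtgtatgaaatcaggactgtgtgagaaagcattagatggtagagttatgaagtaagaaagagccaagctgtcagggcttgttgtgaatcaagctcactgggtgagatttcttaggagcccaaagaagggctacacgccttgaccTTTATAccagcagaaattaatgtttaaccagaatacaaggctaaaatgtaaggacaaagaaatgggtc
Ddc start site 2: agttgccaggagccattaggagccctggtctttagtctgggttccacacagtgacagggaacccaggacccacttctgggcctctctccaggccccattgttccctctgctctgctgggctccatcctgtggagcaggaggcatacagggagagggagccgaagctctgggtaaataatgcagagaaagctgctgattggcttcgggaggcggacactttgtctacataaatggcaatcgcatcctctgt
The Th window was the only 1 of the 8 windows with TGACGTCA, which stood 45 to 38 bases before the start. The Hdc window held GGGCGG 48 to 43 bases before its start, and the Ddc start sites differed in that the first held TATAAA, read on the opposite strand, and the second held none of the 3 motifs. UMIs of Ddc cannot be assigned to either start.

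The 8 genes fell into 3 patterns over cell types, shown in the plot of levels by cell type. Hdc was found mainly in ependymocyte-like cells. Most UMIs of Th, Slc18a2 and Slc6a3 lay in neuron-like cells (202, 68 and 24), where Ddc was present too. By type, Ddc was highest in endothelial-like and mature oligodendrocyte (MOL)-like cells, and Maoa, Maob and Hnmt were spread over most types, with their highest levels in endothelial-like or astrocyte-like cells. In all cells together, Hnmt had 1444 UMIs, Ddc 991, Maoa 989, Hdc 804, Maob 319, Th 242, Slc18a2 84 and Slc6a3 32. Of the 7 genes with at least 50 UMIs, 1 (Hdc) stood at least 4 times above the next type, with 10 CPM added to both levels, beside 5.12% of the 13953 genes tested. The highest type did not overlap any other type over the 4 barcode numbers for 2 of these 7 (Hdc and Maoa), beside 25.0% of the same 13953 genes.

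**Figure D1:**
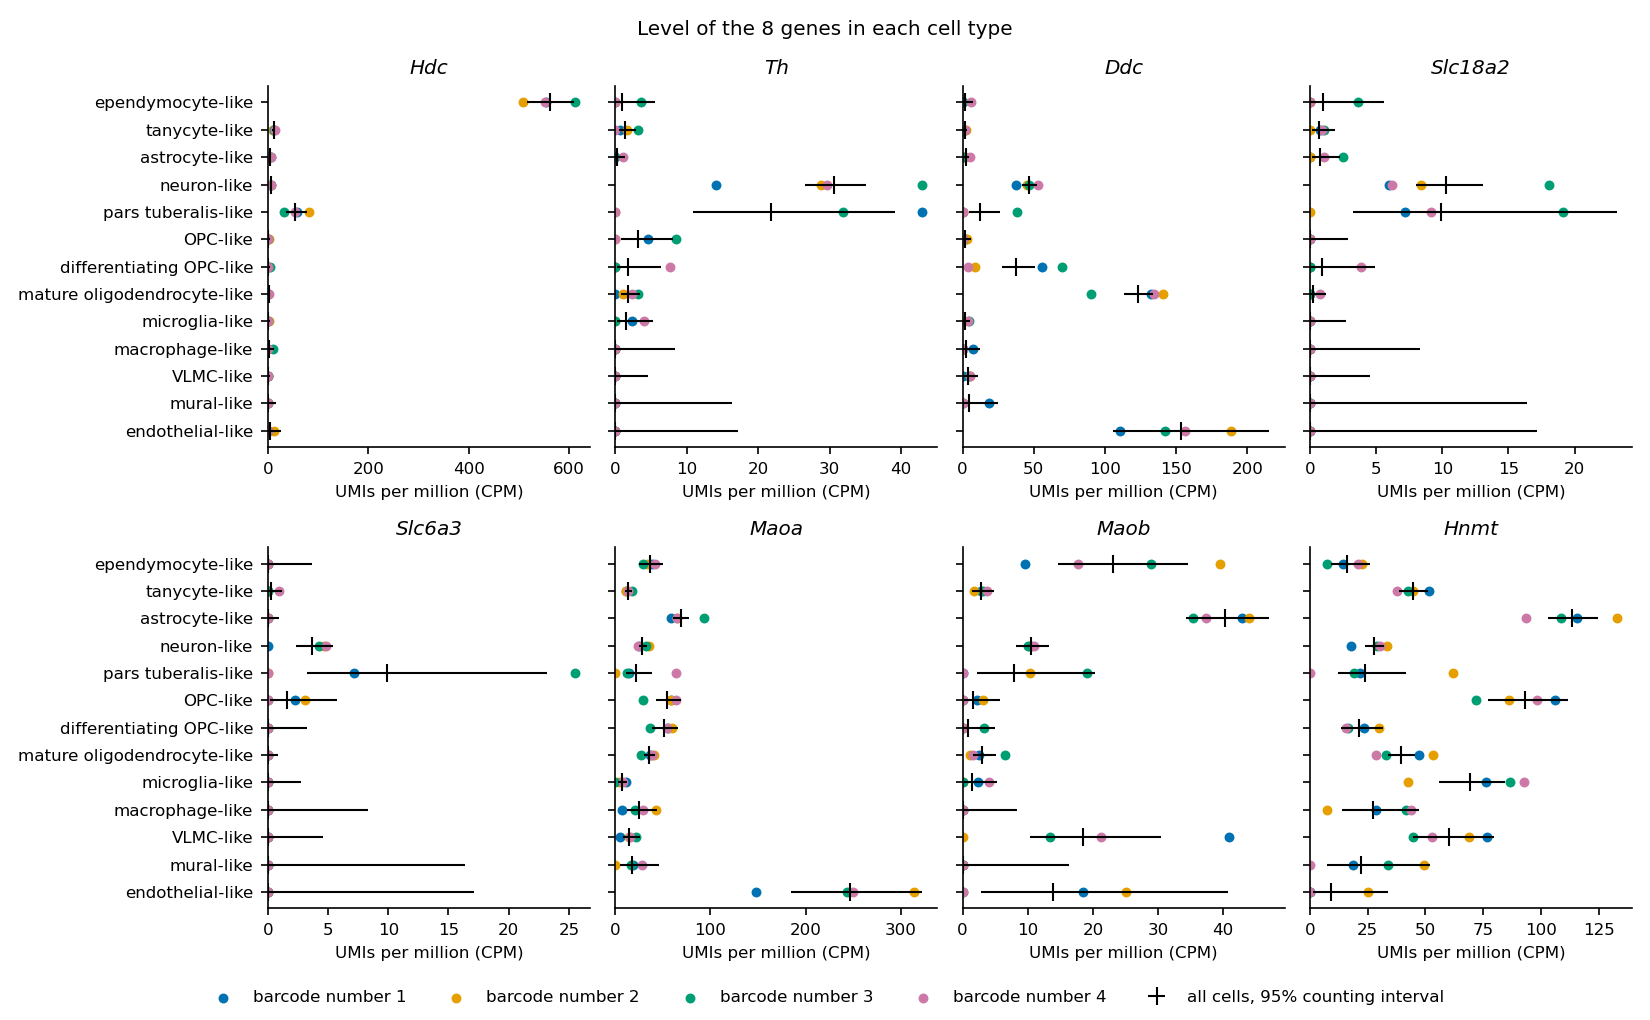
CPM of the 8 genes on the x axis in each of 13 cell types on the y axis, with coloured points for the 4 barcode numbers and black bars for all cells with the 95% counting interval. Hdc stands at 562 CPM in ependymocyte-like cells and at 53.6 CPM or less elsewhere, while Th, Slc18a2 and Slc6a3 are highest in neuron-like and pars tuberalis-like cells.

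Hdc, the enzyme of histamine synthesis, was at 562 CPM (516 to 610) in ependymocyte-like cells, the ciliated cells that line the ventricle. The 4 barcode numbers gave 555, 508, 611 and 553 CPM in 38 to 66 cells each, so every number was far above any other type. Of 202 ependymocyte-like cells, 178 (88.1%, 82.8 to 92.2) held Hdc, at a median of 2 and a maximum of 9 UMIs, and 40 cells held 5 or more. They carried 69.8% of all Hdc UMIs. In MOL-like cells, which are not known to make histamine, 7 of 666 cells (1.05%, 0.424 to 2.15) held Hdc at a median depth of 6150 UMIs, against 4857 UMIs in ependymocyte-like cells. With every cell thinned to 1000 UMIs the shares were 44.1% and 0.150%, so the difference was also present at equal depth. The next types by level were then at 4.55% (1.25 to 11.2, pars tuberalis-like) and 1.46% (0.838 to 2.36, tanycyte-like). Hdc-positive ependymocyte-like cells had a median depth of 4929.5 UMIs and the 24 negative cells one of 4357. Of 3492 genes, 3.72% were at least 1 log2 unit higher in the positive cells, and each of the 10 most different genes, led by Kiz, had 0 or 1 UMI in the negative cells.

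Outside ependymocyte-like cells, Hdc was second highest in the cluster named pars tuberalis-like, the hormone-secreting tissue that wraps the ME, at 53.6 CPM (35.3 to 78.0). The barcode numbers gave 57.2, 82.4, 31.8 and 54.8 CPM, all above the tanycyte-like range of 9.40 to 14.7 CPM. This cluster of 88 cells was mixed. At a Leiden resolution of 2, 32 of its cells kept the name, and in these the thyrotropin gene Tshb was at 1883 CPM and Cga, the shared hormone subunit, was in 32 of 32 cells. These 32 cells held 18 of the 27 Hdc UMIs, in 15 cells, at 66.0 CPM (39.1 to 104). In the other 56 cells, Tshb had 0 UMIs, which allows up to 3, Cga was in 8 cells and Hdc was at 39.0 CPM (17.9 to 74.1). The neuronal gene Syt1 was in 33 of these 56 cells and in 5 of the 32. Snap25, also neuronal, did not divide them, in 39 of the 56 and 26 of the 32. Chga, a marker of the pars tuberalis list, was in 37 of the 56 and in all 32. This division was made after the levels had been seen.

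The ratio of Hdc to ependymocyte marker UMIs differed between groups, as the plot of Hdc beside these markers shows. The ependymocyte-like cells held 4.69 Hdc UMIs per 100 UMIs of the 8 ependymocyte marker genes. Close to this were neuron-like cells as a whole (5.97, from 38 Hdc UMIs) and an unnamed cluster led by Fxyd1, Dynlrb2 and Mef2c (4.32, from 18), while the endothelial-like (5.26) and macrophage-like (3.57) ratios rest on 1 Hdc UMI each. Tanycyte-like cells held 1.32, astrocyte-like cells 1.10 and MOL-like cells 1.89, all below that ratio. VLMC-like and mural-like cells (vascular and leptomeningeal, and vessel wall) held 323 and 157 UMIs of the marker genes with 0 Hdc UMIs, which allows up to 3. The marker genes together were at 398 CPM in VLMC-like, 698 in mural-like and 870 in tanycyte-like cells, against 80.2 in MOL-like cells. Whether these types express some of the marker genes themselves, which would lower the ratio, was not tested. Pars tuberalis-like cells held 56.3 Hdc UMIs per 100 marker UMIs and a neuron-like cluster led by Scg2, Avp and Vip held 27.9. Both were above the ependymocyte-like ratio. In the Scg2, Avp and Vip cluster, Hdc was in 14 of 76 cells at 32.4 CPM, with 18.9, 26.3, 53.6 and 28.5 CPM in the 4 barcode numbers. When neurons were clustered alone, the highest Hdc was in a cluster led by Cck, Avp and Zic1 (11 UMIs in 8 of 35 cells, 48.8 CPM, 24.3 to 87.3). Tanycyte-like cells, the radial glia of the ventricle floor, differed among themselves: the cluster led by 6330403K07Rik, Rax and S100a6 was at 21.8 CPM (43 UMIs in 38 of 541 cells) and the one led by Mia, 6330403K07Rik and Col25a1 at 3.80 CPM (10 of 553 cells). An unnamed cluster of 363 cells led by Gfap, Mia and Mlc1 held 77 Hdc UMIs in 58 cells (47 CPM), with 2.05 per 100 ependymocyte marker UMIs.

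Mast cells, which also make histamine, left almost no trace. Their protease genes had 1 UMI (Cpa3), 1 UMI (Cma1) and 0 UMIs (Mcpt4 and Tpsb2) in all cells, where 0 allows 3. Kit, which other cells express as well, had 122 UMIs, and 4 Hdc-positive cells outside the ependymocyte-like type held it.

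**Figure D2:**
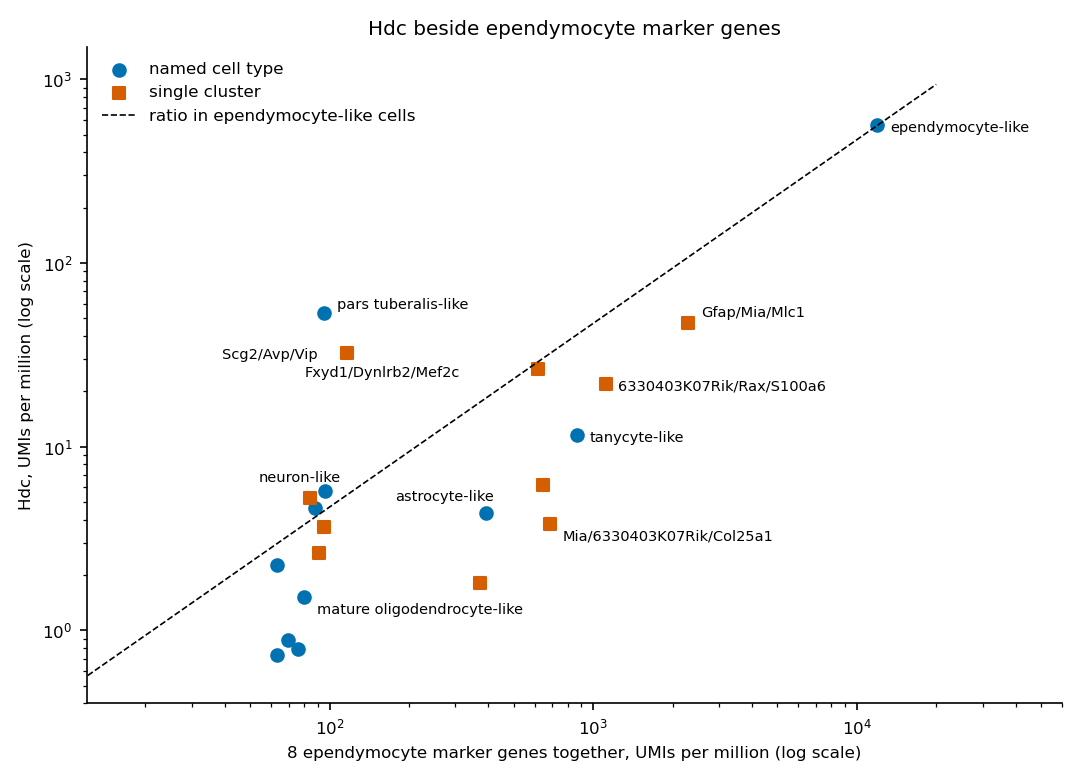
Hdc on the y axis against the sum of 8 ependymocyte marker genes on the x axis, both in CPM on log scales, for named cell types (circles) and some of their or the unnamed clusters (squares), where at least 1 Hdc UMI was found. The dashed line is the ratio in ependymocyte-like cells, and the pars tuberalis-like cells and the Scg2/Avp/Vip cluster lie above it at 53.6 and 32.4 CPM.

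Other genes of histamine handling lay in different cell types from Hdc. Aoc1, the diamine oxidase that breaks down histamine outside cells, was the exception: ependymocyte-like cells held 80 of its 95 UMIs (80.1 CPM), and vascular and leptomeningeal cell (VLMC)-like cells, the next type, were at 2.46 CPM. Slc18a2, which loads histamine into vesicles, had 1 UMI in the ependymocyte-like cells. Hnmt was at 113 CPM (103 to 125) in astrocyte-like cells, with 116, 133, 109 and 93.5 CPM in the barcode numbers. It was at 93.1 CPM in oligodendrocyte progenitor (OPC)-like cells, 69.1 in microglia-like cells, 60.3 in VLMC-like cells and 44.6 in tanycyte-like cells. Neighbours in this order overlapped over the barcode numbers, but astrocyte-like cells (93.5 to 133 CPM) did not overlap microglia-like cells (42.6 to 92.6 CPM). In ependymocyte-like cells Hnmt was at 16 CPM (9.15 to 26.0), and in endothelial-like cells 2 UMIs were found. The histamine receptor gene Hrh1 was highest in astrocyte-like cells (49.5 CPM) and Hrh3, the receptor through which histamine limits its own release, in neuron-like cells (19.8 CPM).

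Th, the gateway of dopamine synthesis, was at 30.6 CPM (26.5 to 35.1) in neuron-like cells, which held 202 of its 242 UMIs. The barcode numbers differed, with 14.2, 28.8, 42.8 and 29.7 CPM, so number 3 was the highest and number 1 the lowest, and without number 3 the level was 24.8 CPM. It was in 64 of 508 neuron-like cells (12.6%, 9.84 to 15.8), of which 41 held at least 2 UMIs and 15 at least 5, up to 16. In MOL-like cells it was in 8 of 666 cells (1.20%), and thinned to 1000 UMIs a cell the shares were 2.36% and 0%. The thinned share in pars tuberalis-like cells, the next type by level, was 2.27% (0.276 to 7.97), which overlapped the neuron-like share. In the pars tuberalis-like cluster Th had 11 UMIs (21.8 CPM), and 10 of these were in the 56 cells without Tshb. Those 56 cells also held all 5 Slc18a2 and all 5 Slc6a3 UMIs of that cluster.

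Both transporters were sparse. Slc18a2 was at 10.3 CPM (7.99 to 13) in neuron-like cells, in 34 of 508 cells, with 5.96, 8.36, 18.1 and 6.22 CPM in the barcode numbers. Number 3 was again the highest, and without it the level was 6.65 CPM. Slc6a3 was at 3.63 CPM (2.33 to 5.40) in 12 neuron-like cells, with 0, 4.64, 4.28 and 4.79 CPM. In the pars tuberalis-like cluster it was at 9.93 CPM (3.23 to 23.2), the highest of the types, but these were 5 UMIs in 2 cells, 4 of them in 1 cell.

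Th was spread over several groups of neurons, and 1 of them stood out by holding all 4 dopamine genes at over 100 CPM. Neuron-like cells clustered again without the 8 genes gave 14 clusters. In 11 cells led by Lhx1os, Sp9 and Lhx1, Th was at 210 CPM (143 to 299), Ddc at 231 CPM (160 to 322), Slc18a2 at 271 CPM (194 to 370) and Slc6a3 at 115 CPM (67.2 to 185). Slc18a2 was in 11 of these 11 cells, Th in 9, Ddc in 8 and Slc6a3 in 5, and Prlr, the prolactin receptor, was at 217 CPM, below the 333 CPM of a cluster led by Tac2. The cells came from all 4 barcode numbers (2, 1, 6 and 2 cells), with 1, 6, 13 and 11 Th UMIs.

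A second cluster of 21 cells, led by Ghrh, Gal and Foxp2, held as much Th but less of the other genes. Th was at 210 CPM (164 to 264) in 20 of 21 cells, with 10, 11, 38 and 13 UMIs in the barcode numbers. Ddc was at 87.4 CPM, Slc18a2 at 20.4 CPM (8.20 to 42.0) and Slc6a3 had 1 UMI, so the Slc18a2 and Slc6a3 intervals lay below those of the first cluster. Ghrh, the releasing hormone for growth hormone, was at 4259 CPM. Both clusters together held 103 of the 202 neuronal Th UMIs (51.0%).

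Th was also found without the vesicular transporter. In 32 cells led by Trh, Gal and Cox6a2, Th was at 108 CPM (75.4 to 149) in 10 cells, while Slc18a2 and Slc6a3 had 0 UMIs, which allows up to 8.97 CPM. In 33 cells led by Sst, Otp and Agrp, Th was at 58.3 CPM in 6 cells and Slc18a2 had 0 UMIs, which allows up to 5.83 CPM. By barcode number, the Trh cluster had 2, 0, 7 and 27 Th UMIs and the Sst cluster 6, 2, 22 and 0, so in each a single number held most of them. No UMI of Th was found in 3 clusters of 35 to 51 cells. They were led by Crabp1, Tcf7l2 and Hmx2, by Tac2, Gm28040 and Nhlh2, and by Cck, Avp and Zic1, and 3 UMIs in them would be 4.63, 4.41 and 13.3 CPM.

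**Figure D3:**
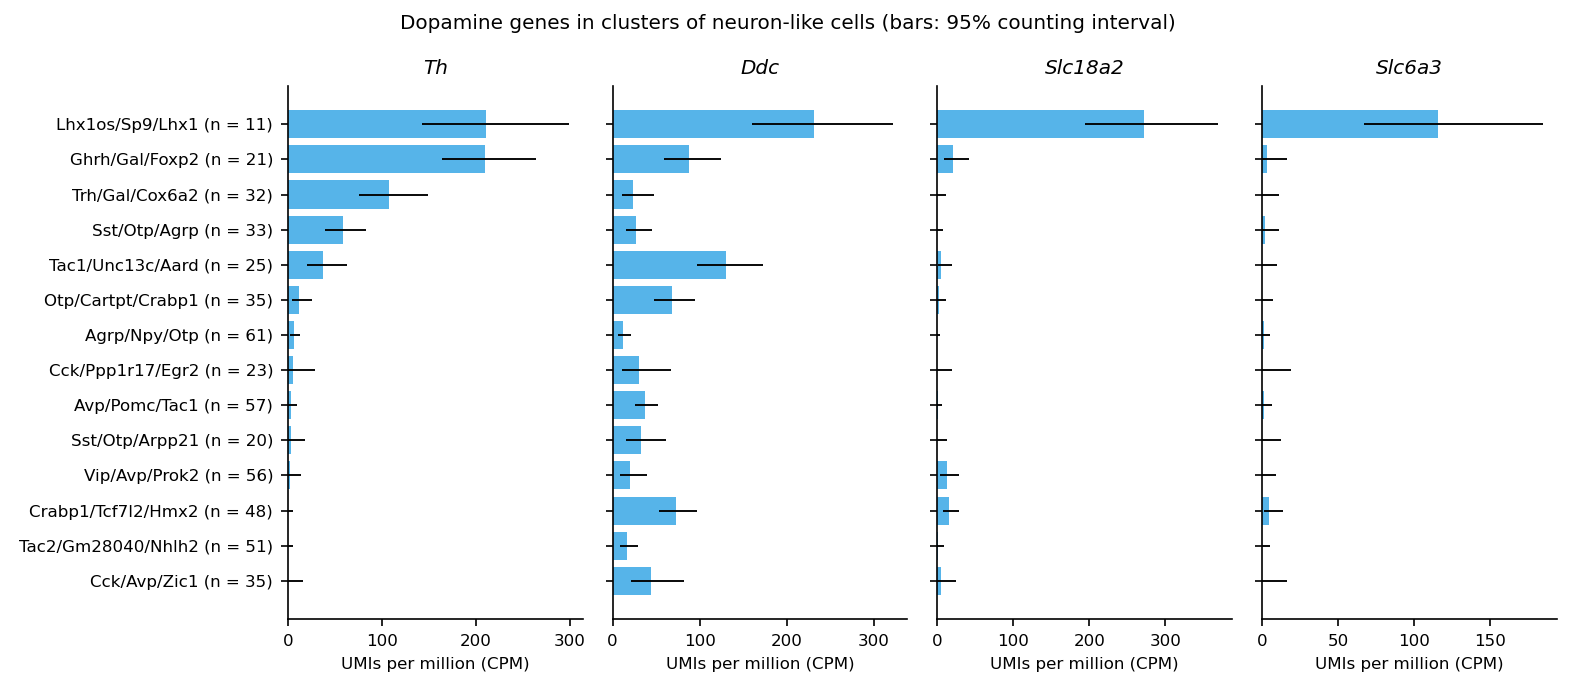
CPM of Th, Ddc, Slc18a2 and Slc6a3 on the x axes in 14 clusters of neuron-like cells on the y axis, named by their 3 leading genes with the number of cells, with 95% counting intervals. The first cluster is the highest or among the highest for all 4 genes, at 210, 231, 271 and 115 CPM, and the second matches it for Th alone.

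Within single neuron-like cells the dopamine genes overlapped in part. Of the 64 Th-positive cells, 23 held Ddc, 16 held Slc18a2, 8 held Slc6a3, 5 held all 4 genes and 34 held none of the other 3. Slc18a2 was at 48.5 CPM (35.4 to 64.9) in Th-positive and 4.05 CPM (2.57 to 6.07) in Th-negative cells, and was higher in the positive cells in all 4 barcode numbers. Slc6a3 was at 21.5 CPM against 0.704 CPM. Most UMIs of both transporters came from the 11 cells of the Lhx1os cluster, of which 9 held Th. They had 40 of the 68 neuronal Slc18a2 UMIs and 17 of the 24 Slc6a3 UMIs. The barcode numbers gave 0, 27.7, 23.7 and 23.7 CPM of Slc6a3 in Th-positive cells, so number 1 had none. Median depth was 15166.5 UMIs in the positive and 12934.5 UMIs in the negative cells, and its part in these differences was not tested.

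The shares of cells with Ddc overlapped between Th-positive and Th-negative cells. Ddc was in 23 of 64 Th-positive cells (35.9%, 24.3 to 48.9) and in 135 of 444 Th-negative cells (30.4%, 26.2 to 34.9), so that 85.4% of the 158 Ddc-positive neuron-like cells had no UMI of Th. By level it was at 79.7 CPM (62.6 to 100.1) against 41.0 CPM (35.9 to 46.6). The barcode numbers gave 148, 83.2, 82.9 and 53.3 CPM in Th-positive cells and 27.6, 39.7, 39.7 and 52.5 CPM in Th-negative cells, so number 4 showed almost no gap. With neurons thinned to 5000 UMIs the shares were 26.8% (14.2 to 42.9) and 16.8% (13.5 to 20.6), and with Th called at 2 UMIs or more they were 46.3% (30.7 to 62.6) and 29.8% (25.7 to 34.1), so the intervals still overlapped. Ddc was at least as high as in neuron-like cells together, with Th below its level there, in the clusters led by Otp, Cartpt and Crabp1 (Ddc 67.9 CPM, Th 11.6 CPM) and by Crabp1, Tcf7l2 and Hmx2 (Ddc 72.6 CPM in 24 of 48 cells, Th 0 UMIs). The clusters led by Avp, Pomc and Tac1 (Ddc 37.4 CPM, Th 3.50 CPM) and by Cck, Avp and Zic1 (Ddc 44.3 CPM, Th 0 UMIs) also held Ddc with little or no Th. The cluster led by Tac1, Unc13c and Aard was high in Ddc (130 CPM) and had Th at 37.3 CPM. In the Crabp1, Tcf7l2 and Hmx2 cluster Slc18a2 was at 15.4 CPM in 6 cells. The genes of breakdown did not separate the cells: Maoa was at 28.0 and 28.7 CPM in Th-positive and Th-negative cells, Maob at 9.70 and 10.6 CPM, and Hnmt at 26.9 and 28.0 CPM, with overlapping intervals.

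Most of the 64 Th-positive cells held genes of GABA neurons, as the plot of cells with and without Th shows. The GABA genes Gad1 and Gad2 were each in 58 cells (90.6%) and the vesicular GABA transporter Slc32a1 in 57 (89.1%), against 76.4%, 68.7% and 66.2% of the Th-negative cells, while the level of Gad1 was alike (295 and 299 CPM). The glutamate transporter Slc17a6 was in 4 cells (6.25%) against 26.8%. Of 9648 genes, 0.332% were at least 1 log2 unit higher in Th-positive cells, and the 10 highest were Ghrh, Gal, Slc10a4, Foxp2, Slc18a3, Dlx1, Slc18a2, Gsx1, Trh and Scgn. Of these, Ghrh, Gal, Foxp2, Gsx1 and Slc18a3 were leading genes of the 21-cell cluster that held 20 of the 64 Th-positive cells. Gal, the gene of galanin, was at 2951 CPM in 41 of 64 cells against 163 CPM in 122 of 444 cells. Ghrh was at 1534 CPM in 23 of 64 cells against 12.8 CPM in 29 of 444 cells. Tac2, the neurokinin B gene, was lower in Th-positive cells, at 8.62 CPM against 489 CPM.

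**Figure D4:**
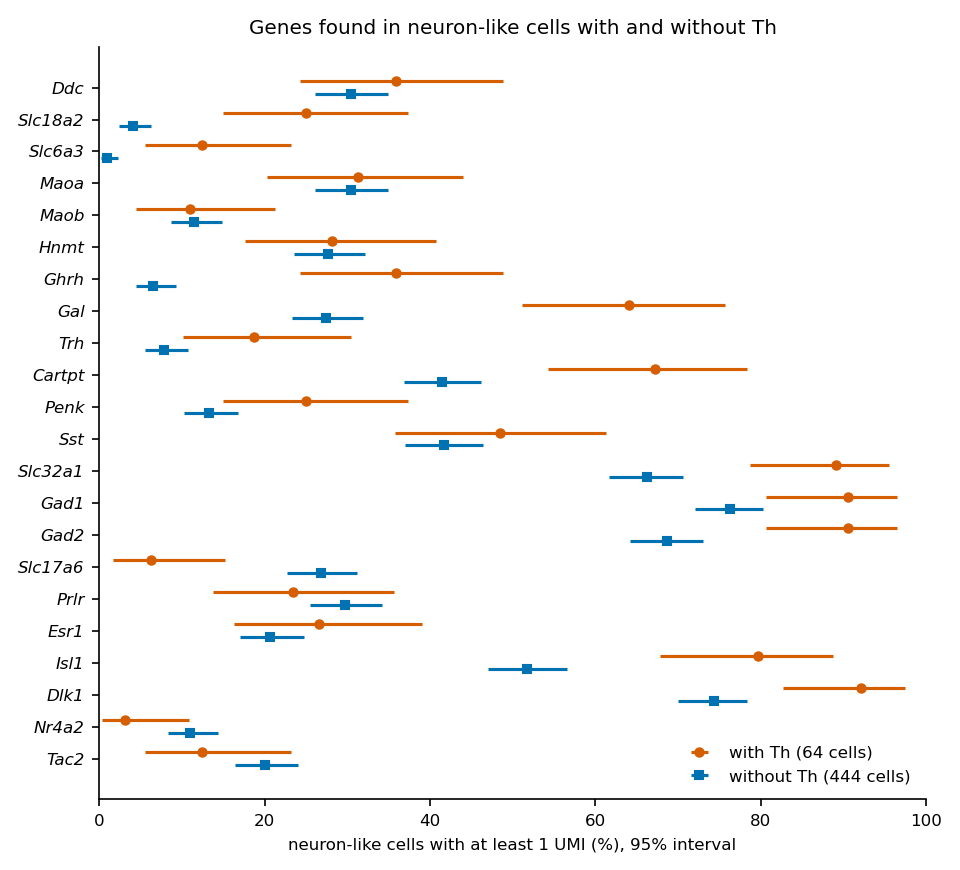
Percentage of neuron-like cells with at least 1 UMI of each gene on the x axis, for 64 cells with Th (circles) and 444 cells without (squares), with exact 95% intervals. Ghrh, Gal, Slc18a2 and Slc6a3 stand apart between the groups, whereas Ddc (35.9% and 30.4%), Maoa, Maob and Hnmt overlap.

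Of the 13 cell types as wholes, 2 had higher Ddc than neuron-like cells, although the Lhx1os neuron cluster (231 CPM) was above both. Endothelial-like cells, the lining of blood vessels, held 153 CPM (106 to 216; 33 UMIs in 25 of 84 cells), with 111, 189, 142 and 156 CPM in the barcode numbers. MOL-like cells, the myelinating glia, held 123 CPM (113 to 134) and 569 of the 991 Ddc UMIs, in 307 of 666 cells (46.1%, 42.3 to 49.97). Their barcode numbers gave 132, 141, 90.4 and 135 CPM, which overlapped the endothelial-like range but not the neuron-like range of 37.3 to 52.6 CPM. Thinned to 1000 UMIs a cell, Ddc was at 91.6 CPM (70.1 to 118) in MOL-like and 59.1 CPM (39.8 to 84.3) in neuron-like cells. These intervals overlapped, whereas endothelial-like cells were at 214 CPM (127 to 339). Ddc was present in each of the 3 MOL-like clusters, at 125, 101 and 142 CPM, and 128 cells held at least 2 UMIs, up to 11. Th had 8 UMIs in MOL-like and 0 UMIs in endothelial-like cells, where 0 allows 14 CPM, and Slc18a2 had 1 and 0 UMIs.

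Along the oligodendrocyte lineage, Ddc was at 1.58 CPM in OPC-like cells (2 of 311), 37.9 CPM (27.4 to 51.0) in differentiating OPC (diffOPC)-like cells (14 of 129) and 123 CPM in MOL-like cells. The diffOPC-like level was uneven over the barcode numbers, at 56, 8.50, 69.8 and 3.85 CPM. The 14 Ddc-positive diffOPC-like cells had a median of 0.292% of their UMIs in the 8 MOL marker genes, against 0.0502% in the 115 negative cells, at median depths of 10882.5 and 8378 UMIs. In MOL-like cells these medians were 1.89% and 1.85% for cells with and without Ddc.

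Maoa was highest in endothelial-like cells and Maob in astrocyte-like cells. Maoa was at 247 CPM (185 to 322) in endothelial-like cells, with 148, 314, 244 and 250 CPM in the barcode numbers, and in 35 of 84 cells (41.7%, 31.0 to 52.9). Astrocyte-like cells followed at 68.8 CPM (60.9 to 77.6), with 58.3 to 93.4 CPM over the numbers, then OPC-like cells at 54.4 CPM and diffOPC-like cells at 51.1 CPM, which overlapped. Microglia-like cells were lowest, at 6.62 CPM. Maob was at 40.3 CPM (34.3 to 47.1) in astrocyte-like cells, with 42.8, 43.9, 35.4 and 37.4 CPM, and at 23.0 CPM in ependymocyte-like cells, where 9.65 to 39.5 CPM overlapped.

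The balance of both oxidases therefore differed between cell types. Maoa made up 97.2% (90.2 to 99.7) of the UMIs of both genes in OPC-like cells, 98.3% in diffOPC-like cells, 92.1% (87.2 to 95.6) in MOL-like cells and 94.6% (85.1 to 98.9) in endothelial-like cells. The Maoa share was 82.7% (72.2 to 90.4) in tanycyte-like cells and 73.3% (67.4 to 78.6) in neuron-like cells. In astrocyte-like cells it was 63.1% (58.3 to 67.7) and in ependymocyte-like cells 61.0% (47.4 to 73.5). In VLMC-like cells it was 44.4% of 27 UMIs (25.5 to 64.7), with 11.1%, 100%, 62.5% and 42.9% in the barcode numbers, and 61.1% without number 1. Both genes lie on chromosome X of GRCm38, Maoa at 16619698 to 16687818 on the plus strand and Maob at 16709282 to 16817366 on the minus strand, with their 3' ends facing each other across 21463 bases. The GENCODE annotation has no other gene over either.

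The wider pathway was read from 41 further genes, of which 37 had a UMI and 22 had at least 50. The endothelial-like type was the highest for 5 of these 22 and the neuron-like type for 4. Endothelial-like cells, which held the fewest UMIs of any type (215009), were highest for 9.42% of all 13953 genes with at least 50 UMIs. The 5 genes were Gch1 (144 CPM, from 31 UMIs), Spr (153 CPM, from 33), Aldh2 (391 CPM, from 84), Akr1a1 (567 CPM, from 122) and Sult1a1 (195 CPM, from 42). Gch1 and Spr make the cofactor tetrahydrobiopterin that Th needs, and the others act on amines or on their aldehydes. The next type was close for Aldh2 (VLMC-like, 383 CPM) and Spr (tanycyte-like, 133 CPM). It was lower for Akr1a1 (neuron-like, 436 CPM), Gch1 (pars tuberalis-like, 55.6 CPM) and Sult1a1 (macrophage-like, 104 CPM). Gch1 was at 16.8 CPM in neuron-like cells and did not mark Th-positive ones (10.8 against 17.8 CPM). Among the other cofactor genes, Qdpr, which regenerates the cofactor, stood at 1577 CPM in MOL-like cells and 112 CPM in diffOPC-like cells, the second highest type. Pcbd1 was highest in neuron-like cells (190 CPM), Pts in ependymocyte-like cells (121 CPM) and Gchfr, the regulator of Gch1, in the pars tuberalis-like cluster (71.5 CPM), followed by ependymocyte-like cells.

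Of the other breakdown genes, Aoc3, an amine oxidase of vessel walls, was highest in mural-like cells at 111 CPM (25 of 30 UMIs). Of the storage and uptake genes, Sv2c, a protein of synaptic vesicles, was at 36.0 CPM in neuron-like cells. The organic cation transporter Slc22a3 was highest in OPC-like cells at 22.9 CPM (29 of 40 UMIs). Of genes of the other monoamines, few UMIs were found: 4 UMIs of Tph2, 1 of Tph1, 2 of Dbh, 2 of Pnmt and 1 of the serotonin transporter Slc6a4 in all cells. The noradrenaline transporter Slc6a2 had 37 UMIs and was highest in astrocyte-like cells, at 2.80 CPM from 11 UMIs. Drd2, Drd4, Taar1 and Asmt had 0 UMIs, which allows up to 0.0502% of the 5982 cells to hold a UMI and sets no limit on cells that express them.

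Likeness to the 8 genes was measured as Pearson's r of log2(CPM + 10) over the 13 cell types, across 13929 genes, as a description of types that share libraries and differ in depth. The genes most like Hdc were Folr1 (r = 0.990), 4732414G09Rik, Dsg2, C330011M18Rik, Nkg7, Sptlc3, Uckl1os, Cfap77, Fam92b and 1700064M15Rik, all highest in ependymocyte-like cells at up to 161 CPM. The level of Nkg7 there was 4 CPM, below the 10 CPM added. Nkg7 was also a leading gene of an unnamed cluster of 19 cells led by Ccl5, Cd52 and AW112010. That cluster was not among the 13 types, so the likeness of Nkg7 to Hdc leaves it out. Those most like Th were Myh7 (r = 0.990), Gpr101, Slc35f4, Nrsn2, Golga7b, Gpr83, Cntnap4, Pgr, Phf24 and Mrap2, all highest in neuron-like cells at 9.53 to 696 CPM. The closest to Ddc were Spns2 (r = 0.902), Abhd17a, Eif4h, Klhl2 and Osbp, and to Maoa Mars2 (r = 0.915), Nxpe4, Stard4, Colgalt2 and Mindy1. Maob was closest to Amot (r = 0.907), Mid2, Slc22a4, Adra2a and Heph, and Hnmt to Isoc2a (r = 0.892), Xrcc2, Gm3764, Wdcp and Extl1. For the sparse genes, Cntn5 (r = 0.998), Spink8, Npffr1, Gpr83 and Cntnap5a led for Slc18a2 and Chgb (r = 0.984), Insm1, Chga, Krtcap3 and Kcnj4 for Slc6a3, for which 5 UMIs in the pars tuberalis-like cluster set the pattern.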

How the data were processed

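Single cells of the ME were profiled with 10x Genomics 3' version 2 chemistry. According to the submitters' notes Cell Ranger 2.0 was used with mm10 (GRCm38). The matrix the authors deposited holds raw UMI counts of genes in cells, which had not been normalized. The 32 sample records are lanes and index parts of 4 libraries and were not taken as replicates. Of 27998 gene identifiers, 27645 were given symbols from GENCODE vM21, and 0 per-sample columns were left unused. The planned comparison of fasted with refed cells was not run, because barcode numbers are tied to no condition. The 8 genes, the gene lists and the cell type markers were chosen with earlier results of these data known.

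Cells in which haemoglobin made up 10% of UMIs or more (3 cells) were left out. Counts were scaled to the median depth and log-transformed, and 2000 variable genes (Hdc and Ddc among them), 30 principal components, 15 neighbours and Leiden clusters at resolution 1 (seed 0) were computed with scanpy 1.11.5 and igraph 0.11.9. A cluster took the name of the best of 13 marker lists if its score (mean share of each marker's highest cluster level) was at least 0.3 and 1.5 times the next, 3 markers lay 4 times above the median cluster with 10 CPM added, and the first marker among its 10 leading genes was of that list, with no other list holding more of them. These limits were set after seeing the data. Neurons were clustered again without the 8 genes. Doublets (Scrublet, 50 cells, 0.836%) were kept. The named genes are the 8, the pathway genes, the neuron genes and those most like each of the 8. Cluster-leading genes, Tshb, Cga, Syt1, Snap25, Chga, Kiz and the 10 genes of Th-positive cells were named after their values were seen. No test was run. The steps were run on cells simulated from the pooled profile of each named type, without spread within a type. Such cells are easily separated, so this run is not taken as support for the clusters. 1 pathway gene is not reported here.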

Additional observations from a re-analysis of the deposited data

Results flagged for a closer look

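1 of the 14 sets of levels over the 4 barcode numbers held a number far from the others by Dixon's 95% criterion, which chance meets in about 1 of 20 sets. Slc6a3 in neuron-like cells was at 0 CPM in barcode number 1 (0 UMIs in 106 cells, which allows up to 2.24 CPM), against 4.64, 4.28 and 4.79 CPM in the others. All of these rest on 24 UMIs in 12 cells.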

How the results depend on the processing

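Of 179 values recomputed for 18 results, 159 stayed within the 95% counting interval of the reported level or share (for counts of genes, within 1.5 times). The other 20 lay outside it, some by little. The results are levels, shares and counts, which have no direction to change. At resolutions 0.5 and 2, 202 cells were again ependymocyte-like, with Hdc again at 562 CPM. Other types changed: at resolution 2, 1383 cells instead of 1094 were tanycyte-like. Their Hdc level was then 21.4 CPM (17.9 to 25.5) instead of 11.5 CPM. K-means with 9 clusters, which found 275 ependymocyte-like cells, gave Hdc at 447 CPM in 74.2% of cells with 74.6% of its UMIs, and gave no value for neuron-like, pars tuberalis-like, OPC-like, diffOPC-like, microglia-like, macrophage-like, mural-like or endothelial-like cells, since no cluster took those names. Thinning to 1000 UMIs a cell gave shares of 44.1% for Hdc and 2.36% for Th, and levels of 59.1 CPM (Ddc), 15.7 CPM (Slc18a2) and 5.91 CPM (Slc6a3) in neuron-like cells and 131 CPM for Hnmt in astrocyte-like cells. At least 2 UMIs a cell gave 67.3% for Hdc and 8.07% for Th, and neurons thinned to 5000 UMIs gave Ddc in 26.8% of Th-positive and 16.8% of Th-negative cells. Leaving out each barcode number in turn gave Th levels of 24.8 to 34.7 CPM and Slc18a2 levels of 6.65 to 12.2 CPM in neuron-like cells, both lowest without number 3. Added after seeing the data, the Maoa share of both oxidases in VLMC-like cells was 61.1% without number 1, Ddc in MOL-like cells was 135 CPM without number 3 and 91.6 CPM thinned, and Hdc in tanycyte-like cells was 20.8 CPM with the Gfap-led cluster counted in. No paired analysis was possible because barcode numbers are tied to no condition or pair.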
